A study of Rattus norvegicus with 56 samples.

Results

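The miR-290 to miR-295 cluster is a group of microRNA hairpins that rodents transcribe together in the early embryo. Its products are abundant in pluripotent stem cells, in germ cells and in the placenta, and they fall to low levels as tissues differentiate. Each hairpin can give a mature microRNA from its 5' arm (5p) and one from its 3' arm (3p). The seed, bases 2 to 8 of the mature microRNA, pairs with target messenger RNAs. Several 3p products carry an AAGUGC seed shared with the miR-302 and miR-17 families, which favour rapid cell division. The 5p products carry another seed, and less is known of what they do.

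Members were all listed microRNAs named miR-290, miR-291a, miR-291b, miR-292, miR-293, miR-294 or miR-295, on either arm. They made up 9 of the 682 microRNAs listed over the 3 tissues. Of these, 9 of 661 were listed in myocardium, 8 of 523 in amniotic fluid and 6 of 518 in maternal serum. MiR-294 and miR-295-5p were listed in no tissue. MiR-290 was not listed in amniotic fluid, and miR-291a-3p, miR-291b and miR-293-3p were not listed in serum.

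The samples came from Sprague-Dawley rats on embryonic day 19, in a model of ventricular septal defect (VSD), a hole in the wall between the ventricles. Dams of the VSD and non-VSD groups had been given dimethadione (DMO, the teratogenic metabolite of an anticonvulsant) by gavage, 6 doses of 5 ml/kg at 60 mg/ml, every 12 h from day 8. Dams of the NC group had been given distilled water instead. The VSD group held DMO fetuses with a VSD and no malformed great vessel, and the non-VSD group held DMO fetuses whose septum was intact. Both DMO groups had thus met the drug, and the VSD group was chosen by its defect. Each of the 3 groups was represented by 7 myocardium and 7 amniotic fluid samples. Maternal serum was sampled for the NC and VSD groups alone, again with 7 each. The sources used here do not say which samples shared a dam, so p-values measure the spread between samples. MicroRNA reads were counted by small RNA sequencing of wax-embedded myocardium, amniotic fluid and serum. Myocardium and serum libraries were made with one kit and amniotic fluid libraries with another.

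The sequences below, from RefSeq (rat assembly GRCr8), show how the members divide by arm and seed, which the results refer to. All 9 listed members matched an entry by name. Capitals mark the seed. The first 3 members share 1 seed on the 5p arm, and miR-291a-5p has a seed of its own.
miR-290: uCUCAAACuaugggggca
miR-292-5p: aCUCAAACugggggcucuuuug
miR-293-5p: aCUCAAACugugugacacuuu
miR-291a-5p: cAUCAAAGuggaggcccucucu
On the 3p arm, the AAGUGC letters lie within the seed of miR-291a-3p and miR-291b. The seeds of miR-292-3p and miR-295-3p begin a base later in that stretch.
miR-291a-3p: aAAGUGCUuccacuuugugugcc
miR-291b: aAAGUGCAuccauuuuguuagu
miR-292-3p: aAGUGCCGccagguuuugagugu
miR-295-3p: aAGUGCUAcuacuuuugggugu

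In RefSeq, CUCAAAC was the seed of miR-290, miR-292-5p and miR-293-5p and of no other rat microRNA. MiR-292-5p and miR-293-5p were identical over their first 10 bases. AAGUGC stood within bases 2 to 9 of 8 of 693 mature rat microRNAs (1.15%), namely miR-291a-3p, miR-291b, miR-17-5p, miR-20a-5p, miR-20b-5p, miR-93-5p, miR-106b-5p and miR-105. The cluster's 7 hairpins lie within 2163 bases on the minus strand, at chr1:74877973-74880135. A second, identical miR-295 hairpin lies on the plus strand of the same chromosome, at chr1:82352152-82352232. Reads of miR-295-3p cannot be assigned to one copy or the other.

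Library totals were 1694811 to 9371130 counts in myocardium, 78188 to 331787 in amniotic fluid and 147609 to 581350 in serum. A count of 0 therefore allowed a level of up to 0.32 to 1.77 counts-per-million (CPM) in myocardium, 9.04 to 38.4 CPM in amniotic fluid and 5.16 to 20.3 CPM in serum. These limits cover counting error only. As a check of the tissue label, 7 heart muscle microRNAs (of the miR-1, miR-133, miR-208 and miR-499 families) were summed in each myocardium library. In 3 libraries the sum was low, at 13300 CPM in NC replicate 2, 14300 CPM in VSD replicate 1 and 21700 CPM in VSD replicate 4, against at least 47500 CPM in each of the others. Myocardium results are given with and without these 3 libraries where a call differed.

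Cluster reads were few in the heart and more frequent in both fluids. Summed over the members and divided by the library total alone, they had a median of 14.2 CPM in NC, 24.5 CPM in non-VSD and 15.2 CPM in VSD myocardium. The libraries ran from 2.99 to 36.1 in the NC, 18.1 to 73.3 in the non-VSD and 3.22 to 30.2 in the VSD group. In amniotic fluid the medians were 543, 1262 and 891 CPM in the NC, non-VSD and VSD groups. In maternal serum the medians were 82.6 CPM in the NC group, with a range of 70.0 to 143, and 197 CPM in the VSD group, with a range of 45.8 to 1720. Every NC serum library thus stood above every NC myocardium library, which had been made with the same library kit. RNA had been taken out by different kits (RecoverAll for wax-embedded myocardium, miRNeasy for serum and HiPure for amniotic fluid), so tissue and extraction cannot be told apart. The tables were made separately, so levels were not tested between tissues. In whole samples, fewer cells that make a microRNA and less of it per cell cannot be told apart.

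Even the most abundant member was of middling rank. MiR-293-5p, at a mean of 16.7 CPM, ranked 312 of 661 in NC myocardium, and the next member, miR-292-5p, ranked 458 at 2.15 CPM. MiR-292-5p led in NC amniotic fluid (rank 152 of 523, 376 CPM) and in NC serum (rank 182 of 518, 53.2 CPM). MiR-291a-5p, at rank 232 in serum with 25.1 CPM, ranked 600 of 661 in myocardium at 0.108 CPM. The leading member thus differed between heart and fluids.

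**Figure D1:**
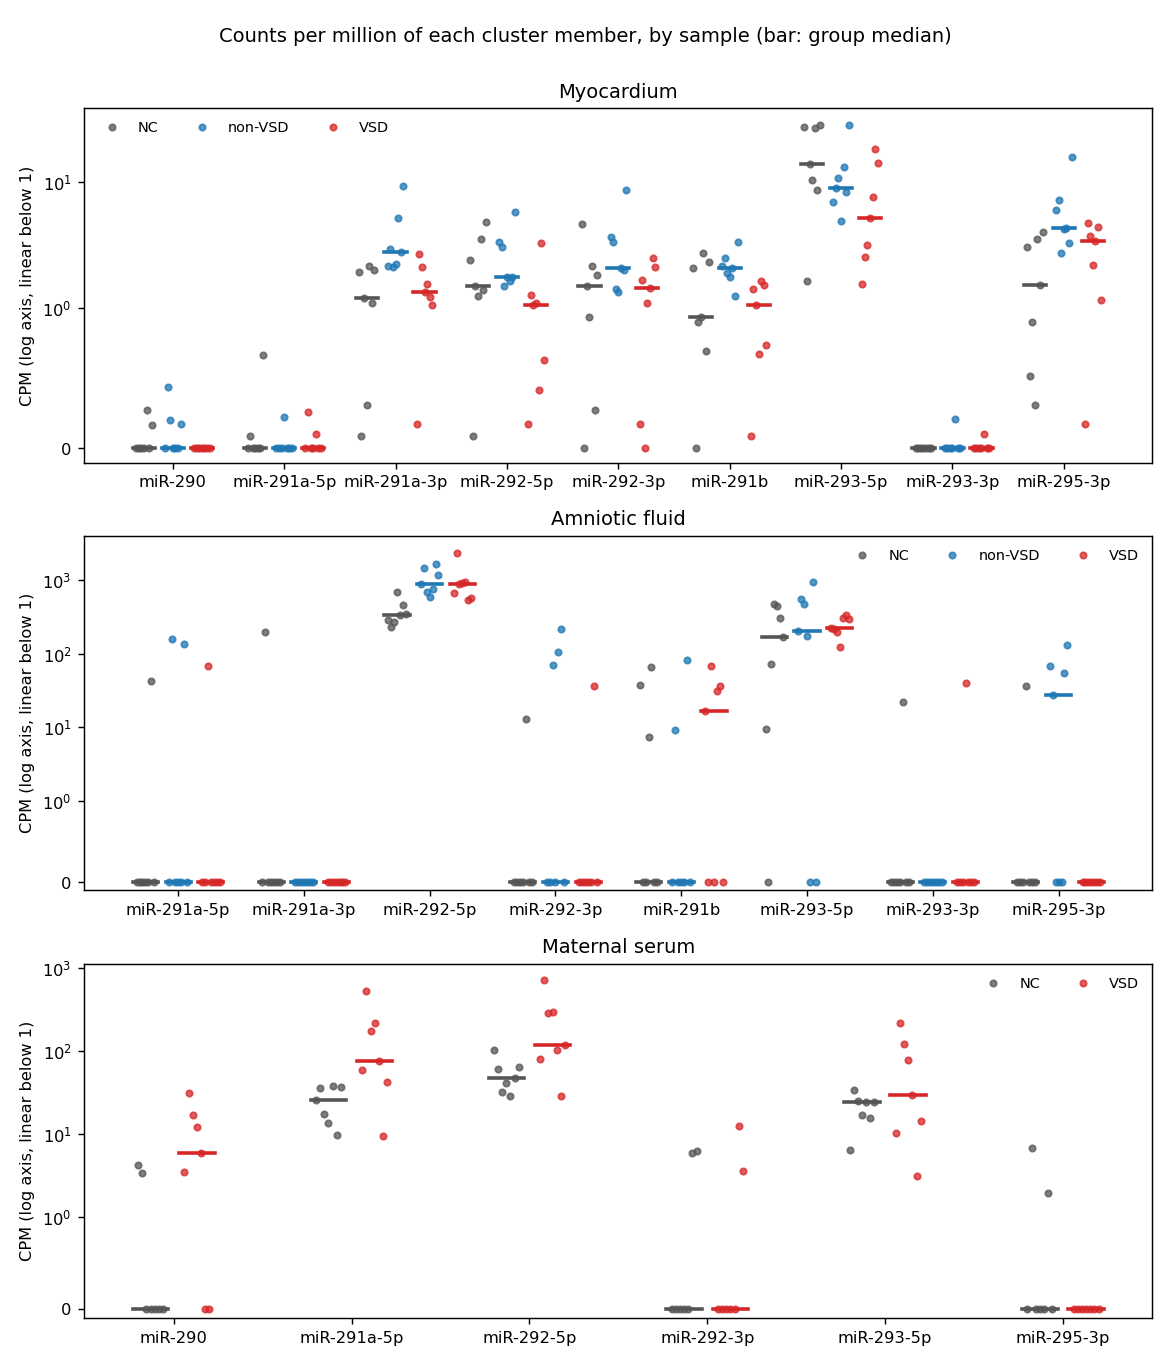
CPM of each listed member (x axis) in each sample, in 3 panels for myocardium, amniotic fluid and maternal serum, on a log axis that is linear below 1; points are samples, colours are groups and bars are group medians (7 samples each). In the heart, miR-293-5p stands highest with 5 members between about 0.1 and 10 CPM, while in the fluids miR-292-5p leads and most 3p members lie at 0.

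The arms were balanced differently in heart and fluids. Of 3019 cluster counts in myocardium, 40.5% came from 3p members. This share was 4.74% of the amniotic fluid counts and 1.37% of the serum counts. In myocardium, miR-293-5p held 50.6% of the cluster's counts, miR-295-3p 15.9%, miR-291a-3p 9.14%, miR-292-3p 8.94%, miR-292-5p 8.28% and miR-291b 6.46%. In amniotic fluid, miR-292-5p held 68.9% and miR-293-5p 24.1%, and in serum miR-292-5p held 50.1%, miR-291a-5p 30.4% and miR-293-5p 16.2%. These shares are of counts summed over libraries, so libraries with more cluster reads weigh more, and VSD replicate 2 gave 286 of the serum counts. Extraction and library kits also differ in how well they capture each sequence.

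The difference was plainest for miR-291a, a single hairpin. In myocardium it gave 9 counts of the 5p arm and 276 of the 3p arm, and the 3p arm was ahead in 20 of 21 samples. In serum, with the same library kit, it gave 333 counts of the 5p arm in 14 samples, and the 3p arm was not listed. In amniotic fluid it gave 86 counts of the 5p and 17 of the 3p arm, in 5 samples alone. MiR-292 gave 250 counts of its 5p and 270 of its 3p arm in myocardium, but 2556 against 49 in amniotic fluid and 550 against 10 in serum. MiR-293 was read almost wholly from its 5p arm in every tissue, with 2 counts of the 3p arm beside 1529 of the 5p arm in myocardium. The remaining member, miR-290, had 8 counts in myocardium and 21 in serum.

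**Figure D2:**
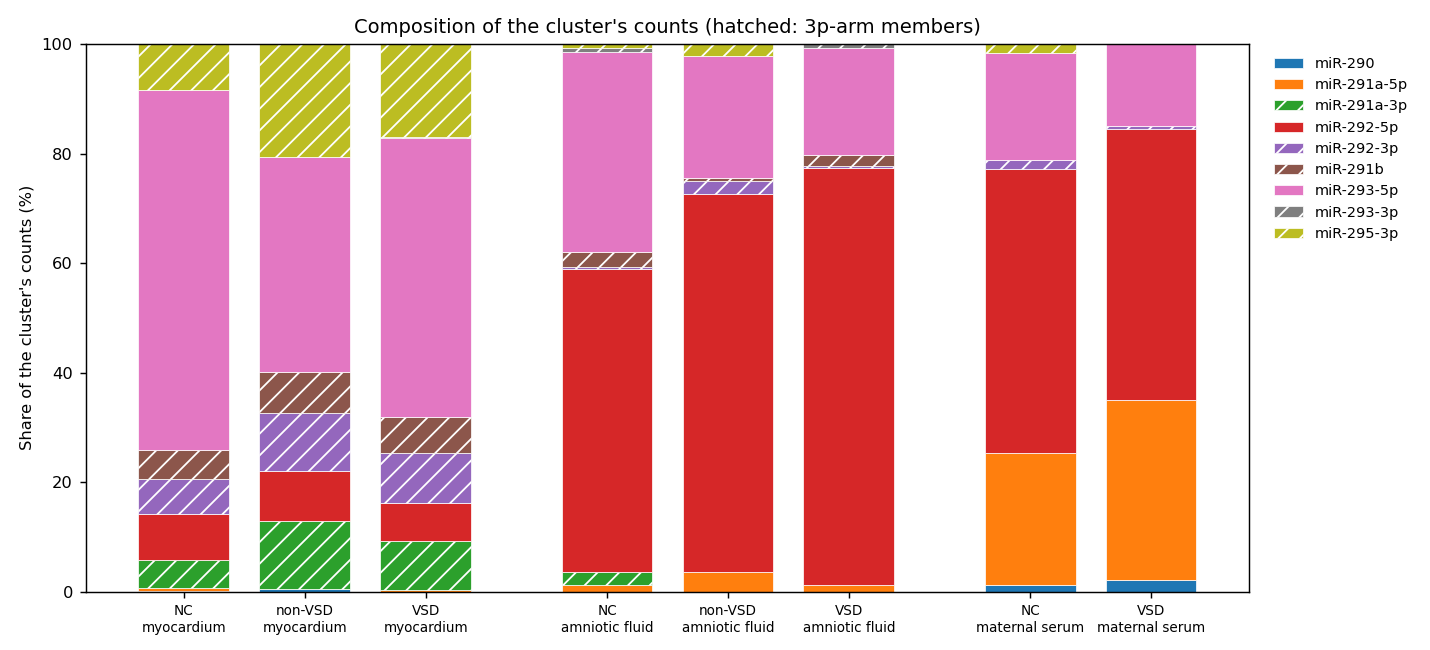
Share of the cluster's counts (y axis, percent, summed over the 7 samples of a group) held by each member, with 3p-arm members hatched, for each group and tissue. The hatched share is large only in the 3 myocardium groups, where it is 25.1% in NC, 51.1% in non-VSD and 41.6% in VSD.

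Within the myocardium, the balance of the members also differed between groups. The 3p members held 17.8% to 28.4% of the cluster's counts in NC samples, with a median of 25.0%. In the non-VSD samples they held 39.7% to 58.1%, with a median of 52.2%, and no sample overlapped with NC. In the VSD samples they held 25.7% to 71.9%, with a median of 46.0%, overlapping both. The other side of this balance was mostly miR-293-5p, which held 63.3% to 73.3% of the counts in NC, 28.8% to 52.0% in non-VSD and 17.5% to 71.1% in VSD samples. NC replicate 2, which was low in heart muscle microRNAs, had a 3p share of 25.0%, at the NC median. These shares are described without a test. As a background, the 5p share of a single hairpin did not overlap between non-VSD and NC myocardium in 2.96% of the 203 hairpins with at least 10 counts of both arms together in every sample. The cluster's share is a sum over several hairpins, so the comparison with single hairpins is only approximate.

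**Figure D3:**
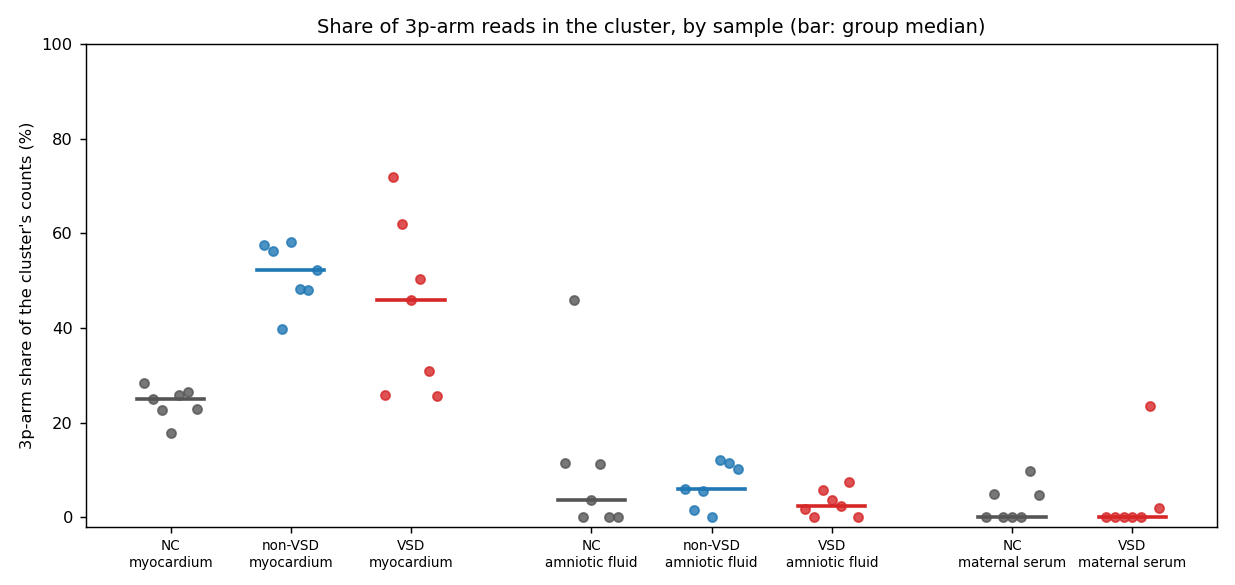
Share of the cluster's counts from 3p-arm members (y axis, percent) in each sample, by group and tissue; points are samples and bars are medians of 7. The NC myocardium samples lie between 17.8% and 28.4%, all below the non-VSD samples, while all fluid samples but NC amniotic fluid replicate 2 (45.9%) and VSD serum replicate 6 (23.5%) lie under 13%.

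The balance of the arms within a single hairpin could not be compared between groups in the fluids or for miR-293. In amniotic fluid miR-292-3p had 3 counts in NC, 42 in non-VSD and 4 in VSD samples, and in myocardium miR-293-3p had 0, 1 and 1 in the same order. A ratio of the arms there follows the count of the 5p arm, and no test of it is given.

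For the group comparisons, a DE-microRNA was one with an unadjusted p under 0.05 by edgeR's quasi-likelihood test whose level also differed by a fold change of 2 or more, or of 0.5 or less, the study's own threshold. Benjamini-Hochberg adjusted p-values were taken over all microRNAs tested in a comparison, and fold changes are given on the log2 scale. CPM in the text were scaled once for each tissue.

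In VSD against NC myocardium, no member was a DE-microRNA, against 6.82% of all 469 microRNAs tested. Of the 9 members, 4 passed the filter on low counts, and 0 of these 4 had an unadjusted p under 0.05, against 19.2% of all. DESeq2 and limma also called 0. MiR-293-5p, the member that dominates the heart's reads, had 1.65, 13.8 and 28.6 CPM as the lowest, median and highest value in NC samples and 1.55, 5.15 and 18.4 CPM in VSD samples. The groups overlapped over most of their range, and 5 of 7 VSD values were under the NC median. Its log2 fold change was -1.14 (SE 0.61, p = 0.0791, adjusted p = 0.281), and the exact permutation p was 0.124. MiR-291a-3p, miR-292-3p and miR-295-3p differed by 0.17, -0.25 and 0.47. Leaving out NC replicate 2, VSD replicate 1 and VSD replicate 4 gave -1.06 for miR-293-5p (adjusted p = 0.235) and still no DE-microRNA among 6 members tested. MiR-293-5p passed the unadjusted threshold without VSD replicate 6 (log2 fold change -1.56, adjusted p = 0.158). It also passed without NC replicate 2 (-1.39, adjusted p = 0.0761), where 2 of 6 members tested were DE-microRNAs.

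In non-VSD against NC myocardium, 2 members of the 3p arm were upregulated, miR-291a-3p and miR-295-3p. These were 2 of 6 members tested, against 4.17% of all 456 microRNAs in either direction and 1.75% higher in non-VSD. MiR-291a-3p, which carries the AAGUGC seed, had 0.0866, 1.20 and 2.18 CPM as the lowest, median and highest value in NC and 2.11, 2.78 and 9.36 CPM in non-VSD samples. All 7 non-VSD values were over the NC median, and 5 were over every NC value. Its log2 fold change was 1.67 (SE 0.55, p = 0.00778, adjusted p = 0.126), with an exact permutation p of 0.00117. MiR-295-3p had 0.313, 1.53 and 4.01 CPM in NC and 2.72, 4.34 and 15.9 CPM in non-VSD samples. Again all 7 lay above the NC median and 5 above every NC sample. Its log2 fold change was 1.72 (SE 0.54, p = 0.0057, adjusted p = 0.118), with an exact permutation p of 0.00699.

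Neither member passed an adjusted p of 0.05 in edgeR, where 0.219% of all microRNAs did. With DESeq2 the adjusted p was 0.0359 for miR-291a-3p and 0.0294 for miR-295-3p. The 2 members were measured on few reads, 46 and 77 counts over the 7 NC samples and 153 and 255 over the 7 non-VSD samples. Non-VSD replicate 7 was highest for both, and without it the log2 fold changes were 1.23 (adjusted p = 0.219) and 1.26 (adjusted p = 0.195). Without NC replicate 2 they were 1.41 and 1.52, and both were still DE-microRNAs. Of the other members, miR-292-3p had a log2 fold change of 1.07 (adjusted p = 0.516), miR-291b of 0.74 and miR-292-5p of 0.43, none past the threshold. MiR-293-5p had 4.90, 8.94 and 28.1 CPM in non-VSD samples and a log2 fold change of -0.45 (SE 0.51, adjusted p = 0.727). Of the 6 log2 fold changes, 5 were above 0, and their median was 0.91 against -0.07 over all microRNAs tested. Among these, miR-291b and miR-292-5p were under the filter on low counts in VSD against NC myocardium. Their entry here can follow from more reads in the non-VSD samples. MiR-291a-3p and miR-295-3p were tested in VSD against NC too, but here their reads in the non-VSD samples also helped them past the filter. The count of 2, the direction and the median are therefore a description only.

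In VSD against non-VSD myocardium, all 6 members tested had negative log2 fold changes, from -1.44 to -0.62, with a median of -1.21 against 0.02 over all microRNAs tested. Of these, 2 were DE-microRNAs, against 5.18% of all 483 microRNAs in either direction and 1.24% lower in VSD. Again miR-291b and miR-292-5p were under the filter in VSD against NC and entered the test with the non-VSD samples. The count, the directions and the median may therefore lean to members high in non-VSD samples. MiR-291a-3p had 0.172, 1.35 and 2.70 CPM in VSD samples, and 5 of 7 lay below every non-VSD sample (log2 fold change -1.44, SE 0.54, p = 0.0139, adjusted p = 0.426, exact permutation p = 0.00466). MiR-292-5p had 0.172, 1.06 and 3.32 CPM in VSD and 1.51, 1.78 and 5.83 CPM in non-VSD samples. VSD replicate 6 was the one VSD sample above the non-VSD median, and the other 6 lay below every non-VSD sample (log2 fold change -1.27, SE 0.60, p = 0.0455, adjusted p = 0.426, exact permutation p = 0.0175). The remaining log2 fold changes were -1.25 for miR-292-3p, -1.17 for miR-295-3p, -1.10 for miR-291b and -0.62 for miR-293-5p, with adjusted p of 0.453, 0.437, 0.439 and 0.598. By exact permutation the first 3 had p of 0.0455, 0.0472 and 0.00408.

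This comparison shares its non-VSD samples with the one before. No microRNA of any kind passed an adjusted p of 0.05 in it by edgeR, while 11.6% had an unadjusted p under 0.05. The count of 2 became 0 without non-VSD replicate 7, 1 without VSD replicate 1, 4 or 7 or non-VSD replicate 1 or 2, and 4 without non-VSD replicate 6. Among the fits that left out 1 sample, miR-291a-3p lost its call only without non-VSD replicate 7. With limma its log2 fold change was -0.90 (adjusted p = 0.369), and no member was called. MiR-292-5p lost its call in 9 of the 14 fits that left out 1 sample (log2 fold changes from -1.86 to -0.98 over the 14) and with the replicate number as a block (-1.29, adjusted p = 0.563). Without VSD replicate 2 or 3 the count stayed at 2 with miR-295-3p in its place, and without VSD replicate 5 with miR-291b. The count was 1 (miR-291a-3p, -1.20) without the 3 libraries low in heart muscle microRNAs.

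**Figure D4:**
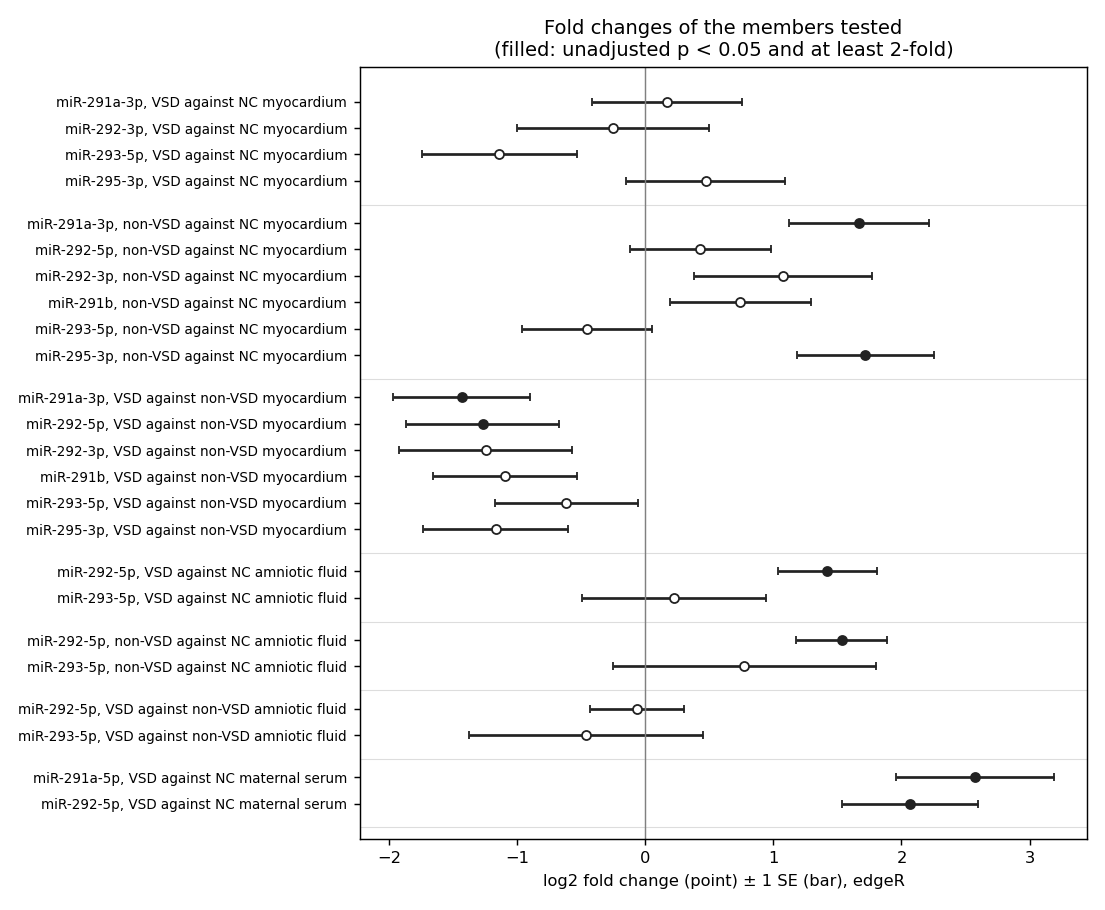
Log2 fold change (x axis, point) with 1 SE to either side (bar) of every member tested in the 7 comparisons by edgeR; filled points are DE-microRNAs, with an unadjusted p under 0.05 and at least a 2-fold change. Filled points lie above 0 in the comparisons with NC and below 0 in VSD against non-VSD myocardium.

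In amniotic fluid, miR-292-5p was higher in both DMO groups, while the difference between those groups did not pass the threshold. Only miR-292-5p and miR-293-5p passed the filter there. MiR-292-5p had 234, 343 and 688 CPM as the lowest, median and highest value in NC, 593, 885 and 1650 CPM in non-VSD and 541, 882 and 2400 CPM in VSD samples. Every DMO sample lay above the NC median, and 6 non-VSD and 4 VSD samples lay above every NC sample. The log2 fold change was 1.42 in VSD against NC (SE 0.39, p = 0.00177, adjusted p = 0.174, exact permutation p = 0.00291), where 6.94% of the 245 microRNAs tested were DE-microRNAs and 3.67% were higher. Only 1 microRNA had a lower p in that comparison.

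In non-VSD against NC amniotic fluid the log2 fold change of miR-292-5p was 1.53 (SE 0.36, p = 0.000392, adjusted p = 0.0272, exact permutation p = 0.000583). That exact p is the smallest 3432 groupings can give. Here 12.4% of the 242 microRNAs tested were DE-microRNAs, 8.68% were higher and 4.96% had an adjusted p under 0.05. With the scaling of NC and non-VSD samples alone, all 7 non-VSD samples lay above every NC sample, while with one scaling for the tissue the groups just overlapped, as they did for all but 1.83% of microRNAs. No such share over all microRNAs was taken with the scaling of NC and non-VSD samples alone. Full separation always gives the smallest exact p, so that p restates the separation. VSD replicate 2 held the highest value, and without it the log2 fold change in VSD was 1.03 (adjusted p = 0.142). The adjusted p in non-VSD rose to 0.0601 with no filter on low counts, and was 0.0522 to 0.0752 without NC replicate 1, 2 or 3 or non-VSD replicate 2 or 5. Between VSD and non-VSD, miR-292-5p had a log2 fold change of -0.07 (SE 0.37, adjusted p = 0.941), and neither member was a DE-microRNA, against 3.3% of 273. Neither had an unadjusted p under 0.05, against 10.6% of all, and DESeq2 and limma called 0. The comparisons with NC share the NC samples, so the rises are not independent.

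MiR-293-5p did not pass the threshold in amniotic fluid. It had 210 ± 199 CPM in NC, 339 ± 344 CPM in non-VSD and 245 ± 74.7 CPM in VSD samples (mean ± SD, n = 7), with medians of 168, 207 and 228 CPM. It had no count in 1 NC and 2 non-VSD samples and at least 18 counts in every VSD sample. Its log2 fold change was 0.22 in VSD (SE 0.72, adjusted p = 0.885) and 0.77 in non-VSD against NC. These values rested on single samples and on the procedure. The first was 0.00 without NC replicate 1 or 2 and 1.77 with limma, and the second was 0.19 without non-VSD replicate 6 and 0.10 with limma. The 3p members were too sparse to compare. MiR-295-3p had 37 counts in 4 non-VSD samples, 5 in 1 NC sample and 0 in the VSD samples. MiR-292-3p had 42 counts in 3 non-VSD samples, 3 in 1 NC sample and 4 in 1 VSD sample. MiR-291a-3p was read in a single sample, NC replicate 2, with 17 counts.

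Some red cell microRNAs were also higher in the amniotic fluid of the DMO groups. Of 5 listed (miR-144, miR-451 and miR-486, which are abundant in erythroid cells), 4 were tested, and 4 were higher in non-VSD and 2 in VSD at an unadjusted p under 0.05, against 19.4% and 13.5% of all microRNAs in either direction. Their summed level was 15100 to 34900 CPM in NC, 25500 to 86300 in non-VSD and 18200 to 144000 in VSD samples, and miR-451-3p was at 0 in every NC sample. Beside this, miR-122-5p, the liver's leading microRNA, had 360 to 1640 CPM in NC and 621 to 40800 CPM in VSD samples, with medians of 970 and 892 CPM, and an adjusted p of 0.174. Of 3 white cell microRNAs tested, miR-142-3p was higher in both DMO groups, by log2 fold changes of 2.36 in VSD and 2.86 in non-VSD at an unadjusted p under 0.05, and the list of 4 summed to 534 to 6620 CPM in NC, 1870 to 26800 CPM in non-VSD and 1330 to 32500 CPM in VSD samples. Of 3 heart muscle microRNAs tested, miR-1b was higher in VSD (log2 fold change 1.43, adjusted p = 0.269), and none had an unadjusted p under 0.05 in non-VSD. The part of these cells in the rise of miR-292-5p was not tested. In myocardium the red cell list went the other way, with 5 of 5 lower in VSD and 4 of 5 lower in non-VSD against NC at an unadjusted p under 0.05, which 19.2% and 17.5% of all microRNAs had. Its summed level there was 2650 to 91200 CPM in NC, 3260 to 34000 CPM in non-VSD and 3440 to 25200 CPM in VSD samples, and 2 of 4 white cell microRNAs were also lower in VSD myocardium. In non-VSD myocardium 1 of the 4 was, miR-142-5p (log2 fold change -1.58, adjusted p = 0.238). The white cell list summed to 426 to 3760 CPM in NC, 378 to 2030 CPM in non-VSD and 278 to 1140 CPM in VSD myocardium. Of 7 heart muscle microRNAs tested, miR-1b was lower in VSD myocardium (log2 fold change -1.03, adjusted p = 0.257), and none had an unadjusted p under 0.05 in non-VSD. The part of these cells in the results of the myocardium was not tested.

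In maternal serum, 2 members of the 5p arm were upregulated in the VSD group. They had the lowest p-values of all 219 microRNAs tested, of which 4.57% were DE-microRNAs. Only these 2 of the 6 listed members passed the filter on low counts. MiR-291a-5p, with 75 counts in NC and 258 in VSD samples, passed mainly through its reads in the VSD group. The count of 2 and the rank of miR-291a-5p may therefore lean to members high in VSD samples. The serum is the mother's, while the group is named after the defect of fetuses. Dams of the VSD group had also been given DMO, and no non-VSD serum was sampled. The drug and the defect therefore cannot be told apart in serum. MiR-291a-5p had 9.66, 25.4 and 38.1 CPM as the lowest, median and highest value in NC and 9.39, 75.9 and 524 CPM in VSD samples. Of the VSD samples, 6 lay above every NC sample and 1, replicate 6, lay below every NC sample. Its log2 fold change was 2.58 (SE 0.62, p = 0.000529, adjusted p = 0.11), with an exact permutation p of 0.0227. MiR-292-5p had 28.6, 46.4 and 102 CPM in NC and 28.2, 116 and 711 CPM in VSD samples, with 5 above every NC sample and replicate 6 again below. Its log2 fold change was 2.07 (SE 0.53, p = 0.00101, adjusted p = 0.11), with an exact permutation p of 0.0239.

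The adjusted p of both members depended on the procedure. With DESeq2 it was 0.00133 for miR-291a-5p and 0.00555 for miR-292-5p, and with limma it was 0.154 for both. With no filter on low counts, where 518 microRNAs entered, it was 0.0136 and 0.0258. Without VSD replicate 2, the sample with the highest levels, the log2 fold changes were 1.88 and 1.46 (adjusted p = 0.367 for both), and both were still DE-microRNAs. Without VSD replicate 6, the low sample, they were 2.81 and 2.28 with adjusted p of 0.00903 and 0.0115.

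The levels in the VSD group ranged widely and did so together. Replicates 2, 3 and 4 had 101, 63 and 36 counts of miR-291a-5p, 137, 102 and 49 of miR-292-5p and 42, 44 and 13 of miR-293-5p. Replicate 6 had 3, 9 and 1 counts of the same members. MiR-293-5p, with 61 counts in NC and 117 in VSD samples, was under the filter. It had 6.35, 23.8 and 33.4 CPM in NC and 3.13, 29.2 and 218 CPM in VSD samples, and 3 VSD samples lay above every NC sample, with 1 below. Fitted with no filter on low counts, its log2 fold change was 1.60 (SE 0.57, p = 0.00932, adjusted p = 0.255), and the exact permutation p was 0.289. MiR-290, which shares the seed of miR-292-5p and miR-293-5p, had 4 counts in 2 NC samples and 17 in 5 VSD samples. The 3p members were nearly absent from serum, with 10 counts of miR-292-3p and 5 of miR-295-3p in all.

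Library totals in serum were lower in the VSD group, 147609 to 370867 counts against 271578 to 581350 in NC. Replicates 2 and 4 of the VSD group, with 166310 and 147609 counts, were the smallest serum libraries, while replicate 3, with 300005, was at the VSD median. Of the markers of other cells, 1 of 2 red cell microRNAs tested was lower in VSD serum (miR-486, log2 fold change -0.58, adjusted p = 0.335) at an unadjusted p under 0.05, which 13.7% of all had, and none of 4 heart muscle, 1 liver and 4 white cell microRNAs tested had an unadjusted p under 0.05. The part of depth and of red cell RNA in the serum result was not tested.

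**Figure D5:**
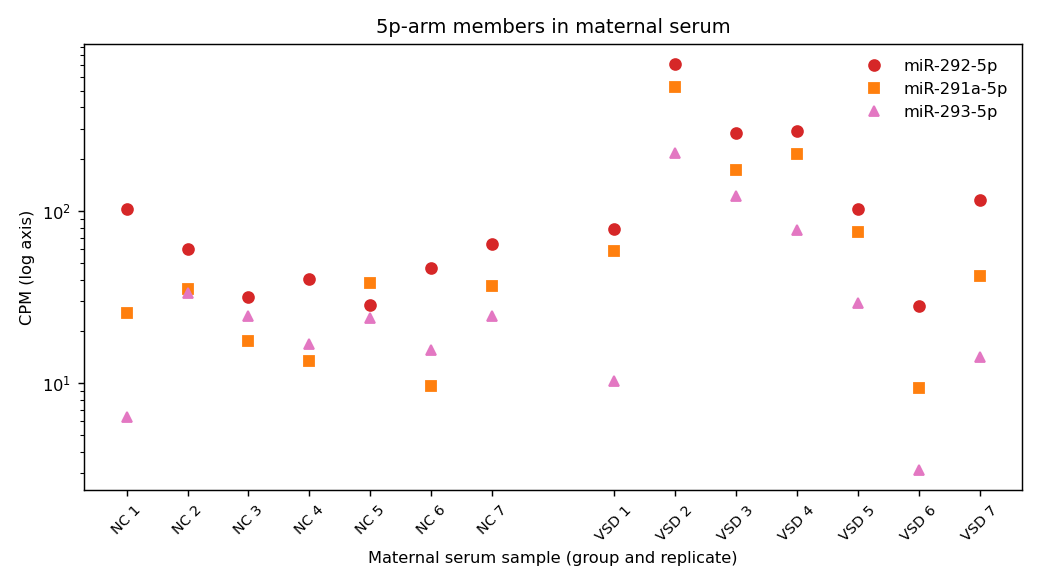
CPM (log axis) of miR-292-5p, miR-291a-5p and miR-293-5p in each of the 14 maternal serum samples (x axis, group and replicate). VSD replicates 2, 3 and 4 lie highest for all 3 members, and VSD replicate 6 lies at or below the lowest NC sample.

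The change in miR-292-5p was set side by side in the 3 tissues. On the scale of mean log2 CPM, VSD minus NC was -0.65 in myocardium, 1.26 in amniotic fluid and 1.53 in serum. In myocardium miR-292-5p was under the filter in VSD against NC, with 61 counts in VSD and 77 in NC samples. Its change there had an exact permutation p of 0.253, so a fall in the heart was not established. In a permutation test, with group labels permuted 100000 times within each tissue, the myocardial change differed from that in amniotic fluid with p = 0.0137 and from that in serum with p = 0.02. After adjustment over the 261 and 216 microRNAs compared, these were 0.106 and 0.261, and 23.4% and 15.3% of those microRNAs had an unadjusted p under 0.05. For miR-293-5p the changes were -1.11, 0.88 and 0.84, and the same permutation tests gave p = 0.0527 and 0.0563 (adjusted 0.215 and 0.292). By edgeR its log2 fold change in amniotic fluid was only 0.22 (adjusted p = 0.885). Amniotic fluid and serum did not differ in either member by this permutation test (p = 0.753 and 0.971, where 11.9% of all microRNAs had a p under 0.05). For non-VSD minus NC, the myocardial and amniotic fluid changes of miR-292-5p were 0.57 and 1.41, with a permutation p of 0.27, where 16.5% of all had one under 0.05.

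In the heart most members ranked the samples alike, and miR-293-5p was least like miR-291a-3p and miR-295-3p. Over the 21 myocardium samples, Spearman's rho was 0.83 between miR-291a-3p and miR-295-3p and 0.85 between miR-291b and miR-292-5p. Between miR-293-5p and the others it was 0.18 for miR-291a-3p and 0.21 for miR-295-3p, but 0.58 to 0.67 for miR-291b, miR-292-5p and miR-292-3p. Over the 14 serum samples, it was 0.84 between miR-291a-5p and miR-292-5p, and over the 21 amniotic fluid samples it was 0.29 between miR-292-5p and miR-293-5p. These values are descriptions of libraries that share depth and group, on low counts.

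The microRNAs outside the cluster whose ranking of the samples was most like the cluster's summed CPM differed between tissues. In myocardium they were miR-22-3p (Spearman's rho 0.82), miR-330-5p (0.78) and miR-532-3p (0.75), of 477 compared over 21 samples. In amniotic fluid they were miR-665 (0.66), miR-1224 (0.60) and miR-3557-5p (0.60), of 271. In serum they were miR-1188-5p (0.88), miR-298-5p and miR-770-3p (both 0.86), of 217 compared over 14 samples.

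Other microRNAs of early development were read beside the cluster. No microRNA of the cluster of miR-302 and miR-367, the other large family of pluripotent cells, was listed in any tissue. The 5 listed AAGUGC relatives outside the cluster (miR-17-5p, miR-20a-5p, miR-20b-5p, miR-93-5p and miR-106b-5p) are common in dividing cells and were far more abundant, with summed medians of 8680 to 10100 CPM in the myocardium groups. In non-VSD against NC myocardium, where miR-291a-3p was higher, 0 of the 5 were higher and 1 was lower (miR-93-5p, log2 fold change -0.48, adjusted p = 0.25) at an unadjusted p under 0.05, which 17.5% of all microRNAs had. In VSD against non-VSD, where miR-291a-3p was lower, 2 of 5 were higher (miR-20b-5p by 0.77 and miR-20a-5p by 0.48), against 11.6% of all. In VSD against NC, 1 of 5 was higher, miR-20b-5p by 0.75 (adjusted p = 0.155), against 19.2% of all. Whether the relatives and the cluster differed was not tested. None of the 3 relatives tested in amniotic fluid against NC and none of the 4 tested in serum had an unadjusted p under 0.05.

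The rodent Sfmbt2 cluster, which is read mainly in placenta and early embryo, had 6 listed members in myocardium, all tested. One of them, miR-466c-5p, was higher in both DMO groups against NC, by 0.98 in VSD (SE 0.26, adjusted p = 0.0645) and by 0.64 in non-VSD (SE 0.21, adjusted p = 0.126), at an unadjusted p under 0.05 in each. Such a p was found for 19.2% and 17.5% of all microRNAs in the same comparisons, so the count of 1 of 6 is near that share. The median log2 fold change of the 6 was 0.91 in VSD and 0.60 in non-VSD against NC. Over all microRNAs tested it was -0.05 and -0.07. Their summed level had a median of 51.3 CPM in NC (41.7 to 98.3), 92.2 CPM in non-VSD (44.0 to 109) and 108 CPM in VSD samples (43.8 to 173). A shift of this list as a whole was not tested. In serum 1 of 6 was tested and it had no unadjusted p under 0.05, and in amniotic fluid none of 4 was tested. Of the X-linked germ-line cluster, 19 were listed in myocardium, 7 in amniotic fluid and 14 in serum. At most 5 of these were tested in a comparison, and none had an unadjusted p under 0.05.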

How the data were processed

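MicroRNA counts from 56 samples (8 groups of 7) were analysed. The authors filtered the reads by quality and deposited whole-number counts of reads per mature rat microRNA, without normalization, in 5 tables. Bcl2fastq 2.19 and DESeq are named in the submitters' processing notes. The aligner, the microRNA annotation, the genome build and any use of molecular identifiers are not given in the sources used here. The 70 columns of scaled values and the authors' own comparisons (fold changes and p-values) were not used. Wax-embedded tissue gives degraded RNA, and sequence-dependent ligation differs between kits, both of which can shift the levels of single microRNAs.

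Groups were taken from the sample titles. Counts were tested in R 4.3.3 with edgeR 4.0.16 (filterByExpr at its defaults, with 10 counts as the minimum and 15 in total, TMM scaling, quasi-likelihood test), on 7 against 7 samples, or on all 21 of a tissue for VSD against non-VSD. Benjamini-Hochberg adjustment was over all microRNAs tested. Single members were also compared by exact two-sided permutation of mean log2 CPM (prior count 2) over 3432 groupings of 14 samples, on the scaling of that comparison. Arm ratios (5p + 0.5 over 3p + 0.5) were permuted likewise, but 3p counts of the members were too few for these to be read. No 2 samples of a group agreed within sampling noise (lowest chi-square per degree of freedom 10.7 over 168 pairs). The lowest was between NC replicates 1 and 7 of serum, where the other NC pairs had 40.9 to 239. Why this pair was closer was not tested. Values per sample and fold changes are given for members with an unadjusted p under 0.05 or an absolute log2 fold change of at least 1, and for miR-293-5p. Beside these, values are given for the 3 microRNAs most like the cluster in each tissue. For the lists, members with an unadjusted p under 0.05 are counted, and values are given for some of them (at most 3 a list and comparison). The members, lists and tests were chosen with earlier results of these data known, and the comparison of changes between tissues was added after the values had been seen. Scripts were tested on simulated data beforehand. The same comparisons were also run with DESeq2 1.42.0, with limma 3.58.1 on CPM + 1 in log2, with library size scaling, other filters, other samples in the fit, a replicate block and each sample left out in turn. Leaving out the 3 libraries lowest in heart muscle microRNAs was added after the data had been seen. Figures were drawn with matplotlib 3.10.9.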

Additional observations from a re-analysis of the deposited data

Results flagged for a closer look

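Among 34 sets of 7 samples, 12 held a sample far from the other 6, by a test that chance passes in about 1 of 20 sets. Since members are read from the same libraries, these are few independent events. In myocardium, non-VSD replicate 7 was far above its group in the cluster's summed CPM (73.3) and in 5 members, with 9.36 CPM of miR-291a-3p, 8.66 CPM of miR-292-3p, 5.83 CPM of miR-292-5p, 28.1 CPM of miR-293-5p and 15.9 CPM of miR-295-3p. VSD replicate 6 was far above its group in miR-292-5p, at 3.32 CPM. In amniotic fluid, VSD replicate 2 stood apart in the cluster's summed CPM (2670) and in miR-292-5p (2400 CPM). In maternal serum, VSD replicate 2 stood apart in the cluster's summed CPM (1720), in miR-291a-5p (524 CPM) and in miR-292-5p (711 CPM).

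The change of miR-292-5p from NC to VSD differed between tissues by an unadjusted permutation test. It was lower in myocardium than in amniotic fluid by a log2 difference of -1.91 (permutation p = 0.0137, adjusted 0.106) and lower than in maternal serum by -2.18 (p = 0.02, adjusted 0.261). MiR-292-5p was lower than the NC median in 6 of 7 VSD myocardium samples and higher in 7 of 7 amniotic fluid and 6 of 7 serum samples. In VSD against NC myocardium it was under the filter on low counts, and its change there had an exact permutation p of 0.253.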

How the results depend on the processing

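The number of members past the threshold kept within 1.5 times its value under most settings. In VSD against non-VSD myocardium (2 members) it was 4 with DESeq2, 0 with limma, 4 with no filter, 5 when NC samples were kept out of the fit and 1 with the replicate block or without the 3 libraries lowest in heart muscle microRNAs. It ranged from 0 to 4 when single samples were left out. In non-VSD against NC myocardium (2) it was 0 with at least 10 counts in every sample, where 1 member was tested. With no filter it was 3 in VSD against NC (1), 4 in non-VSD against NC (1) and 2 in VSD against non-VSD (0) amniotic fluid, and 4 in serum (2). It ranged from 0 to 2 in VSD against NC myocardium (0) with single samples left out. With at least 10 counts in every sample, no member was left in several comparisons.

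MiR-293-5p in VSD against non-VSD amniotic fluid (-0.47) reversed to 1.72 with limma and ranged from -0.69 to 0.03 with single samples left out. The arm ratio of miR-292 in non-VSD against NC amniotic fluid ranged from -0.67 to 0.516, on too few 3p counts to be read. The causes were not tested. Samples with equal replicate numbers were not taken as pairs, since in no comparison were all 7 correlations of their deviations above 0.1 (19 of 49 were, from -0.64 to 0.52). In serum 5 of 7 were, from -0.14 to 0.34, and the replicate block raised the microRNAs with an adjusted p under 0.05 from 0 to 5. The block took the adjusted p of miR-291a-5p in serum to 0.0446 (log2 fold change 2.06) and that of miR-292-5p in non-VSD against NC amniotic fluid to 0.122. Scaling by library size moved the median of all microRNAs to 0.32 in VSD and 0.13 in non-VSD against NC myocardium. Depth limits the fluids most, where most 3p members lie under the level a count of 0 allows.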
